A study of Mus musculus with 24 samples.

Results

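Genes that sense, signal and repair DNA damage were followed through 4 states of mouse muscle stem cells (MuSCs) with and without dystrophin. They were 36 genes taken by symbol from a fixed list of names, out of 53392 genes in the transcript files, and all 36 were present and passed the filter on low counts in all 10 comparisons. They fall into 7 roles. There were 11 genes of homologous recombination, 6 of the Fanconi anaemia pathway, 7 that sense breaks or act as checkpoint kinases, 3 of end joining, 4 of base excision and single-strand break repair, 3 of nucleotide excision repair and 2 of mismatch repair.

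The wild-type (WT) strain was C57BL/10ScSnJ and the *mdx* strain was C57BL/10ScSn-Dmd mdx/J, which carries a mutation of *Dmd* that removes full-length dystrophin. Mice of both genotypes carried the Pax7-nGFP reporter, which marks nuclei of cells that use the *Pax7* promoter, and were matched for age and sex. Their ages were not given in the sources used here for these libraries. Freshly isolated MuSCs (FiMuSCs) were sorted from resting hindlimb muscle, and activated MuSCs (AMuSCs) were sorted 3 days after injury with cardiotoxin, a venom toxin that destroys myofibres. The sorted cells were positive for GFP and ITGA7 and negative for CD31, CD45, SCA1 and CD11b. Primary myoblasts were purified with magnetic beads and grown with basic FGF on collagen, and myotubes were myoblasts kept for 2 days in medium with horse serum. Each of the 8 groups had 3 libraries, described as biological triplicates, and no source used here ties a library to a named animal.

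Levels are CPM, the expected counts of a gene relative to the size of its library, after scaling the 24 libraries to each other. Totals ran from 37280196 to 64429222 expected counts per library. *Dmd* RNA was lower in *mdx* than in WT FiMuSCs (means of 146 ± 5.72 and 249 ± 16.3 CPM, SD, n = 3) and myotubes (41.8 ± 4.75 and 215 ± 13.2 CPM). It was not lower in *mdx* AMuSCs (24.7 ± 9.07 and 18.0 ± 2.72 CPM), and stood at 12.2 ± 14.7 and 8.01 ± 5.05 CPM in myoblasts, so that this RNA separates the genotypes in FiMuSCs and myotubes and does not check the labels in AMuSCs and myoblasts. *Pax7* was highest in FiMuSCs, and *Mki67* in AMuSCs. The 8 leukocyte and macrophage markers summed to 3801, 129.8 and 263 CPM in the *mdx* AMuSC libraries and to 12.002, 12.3 and 30.7 CPM in WT, although the sort excluded CD45 and CD11b. *mdx* AMuSC replicate 1 thus stood apart, and results that rest on it are given with and without it. The RNA kit differed between sorted and cultured cells, so that kit and origin cannot be told apart between them. Every comparison stays within sorted or within cultured cells, although an alternative setting fits all 24 libraries together. In bulk RNA, fewer cells that express a gene and less RNA per cell cannot be told apart.

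Dividing cells copy their genome, and replication forks stall or break when they meet damaged bases. Broken forks are repaired by homologous recombination, in which *Brca1*, *Bard1*, *Palb2* and *Brca2* bring the recombinase onto resected DNA, and crosslinks between strands are unhooked by the Fanconi anaemia pathway. Cells outside the cycle lack a sister chromatid and rely on end joining, in which the Ku proteins of *Xrcc5* and *Xrcc6* and the kinase of *Prkdc* bind the ends. Lesions of single bases and bulky adducts are removed by excision repair in and out of the cycle. MuSCs are quiescent in resting muscle, divide after injury and leave the cycle for good when they fuse.

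Promoter stretches of 7 members are printed because most of the members rose and fell together below. They were taken from RefSeq promoters on GRCm38.p6, which reach from 250 bases before a gene's start to 50 after it and were found for 28 of the 36 members. Each stretch lies before the start and outside the gene's annotated exons, and is written 5′ to 3′ on the gene's strand. Capitals mark E2F letters (TTTCCCGC, TTTGGCGC, TTTCGCGC or TTTGCCGC, the binding letters of the factors that switch on genes of DNA synthesis) and the CCAAT box (CCAAT), on either strand. *Bard1* (chr1:71103147-71103222, minus strand), *Brca2* (chr5:150522433-150522620, plus strand) and *Chek2* (chr5:110839811-110839978, plus strand) hold E2F letters before the start. *Brca1* (chr11:101551956-101552055, minus strand), *Rad54l* (chr4:116123691-116123790, minus strand) and *Brip1* (chr11:86201194-86201293, minus strand) hold CCAAT boxes. The stretch of *Xpa* (chr4:46196312-46196411, minus strand) is shown because this gene is described on its own below; it holds neither, though a CCAAT box lies elsewhere in its promoter.
Bard1: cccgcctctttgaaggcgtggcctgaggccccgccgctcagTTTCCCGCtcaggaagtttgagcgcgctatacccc
Brca2: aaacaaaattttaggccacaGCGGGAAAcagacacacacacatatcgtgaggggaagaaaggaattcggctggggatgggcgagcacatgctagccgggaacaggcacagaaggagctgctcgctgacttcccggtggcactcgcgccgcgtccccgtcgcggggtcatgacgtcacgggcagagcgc
Chek2: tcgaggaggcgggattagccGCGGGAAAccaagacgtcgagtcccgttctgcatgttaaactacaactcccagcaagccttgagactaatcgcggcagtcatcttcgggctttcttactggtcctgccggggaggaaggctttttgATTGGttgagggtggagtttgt
Brca1: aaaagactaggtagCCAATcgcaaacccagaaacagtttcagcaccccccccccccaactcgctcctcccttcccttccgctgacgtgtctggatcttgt
Rad54l: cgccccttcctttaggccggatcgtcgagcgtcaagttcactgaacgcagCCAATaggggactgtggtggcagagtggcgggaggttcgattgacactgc
Brip1: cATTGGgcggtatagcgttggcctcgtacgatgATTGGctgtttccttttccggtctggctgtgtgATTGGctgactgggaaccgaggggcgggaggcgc
Xpa: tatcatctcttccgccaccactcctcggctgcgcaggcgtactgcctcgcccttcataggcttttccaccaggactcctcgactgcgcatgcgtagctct
In the whole 300-base promoters, E2F letters were found for 5 of 28 members (17.9%), against 2.26% of all 32851 promoters, and the other 2 members were *Xrcc6* and *Msh6*. CCAAT boxes were found for 19 of 28 members (67.9%), against 37.4% of all promoters. The CHR element (TTTGAA), known from genes used late in the cycle, was found for 1 of 28 (3.57%) against 17.9%. The members' promoters had a median GC content of 57.3% and all promoters 52.7%. Neither E2F letters nor a CCAAT box were found for *Parp1*, *Atr*, *Ung*, *Lig3*, *Fanci*, *Chek1* and *Ercc1*, of which all but *Ercc1* were called higher after injury in WT. For *Fanci*, *Chek1*, *Ercc1*, *Xrcc6*, *Fancc* and *Xrcc1* the promoter searched lies within the annotated span of the gene. The bases before that span were not searched. The CCAAT boxes counted for *Xrcc6*, *Fancc* and *Xrcc1*, and the E2F letters of *Xrcc6*, thus lie inside the gene. A match is a description of letters and not a binding site, and the part of these letters in the changes below was not tested.

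Levels in the 4 states are set side by side here across the 2 kits, with no test. In WT, 22 of the 36 genes had their highest mean in AMuSCs, 9 in myoblasts and 5 in FiMuSCs, whereas in *mdx* 21 had it in myoblasts, 11 in AMuSCs and 4 in FiMuSCs. None had it in myotubes in either genotype. The summed level of all members was 727, 685 and 712 CPM in WT FiMuSCs, 1674, 1507 and 1617 in WT AMuSCs, 1416, 1372 and 1388 in WT myoblasts and 609, 589 and 585 in WT myotubes. Over the 24 libraries of the heat map, recombination and Fanconi genes such as *Exo1*, *Rad54l* and *Fanci* spanned the widest range, whereas *Lig3*, *Xpc*, *Nbn* and *Prkdc* spanned the narrowest.

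**Figure D1:**
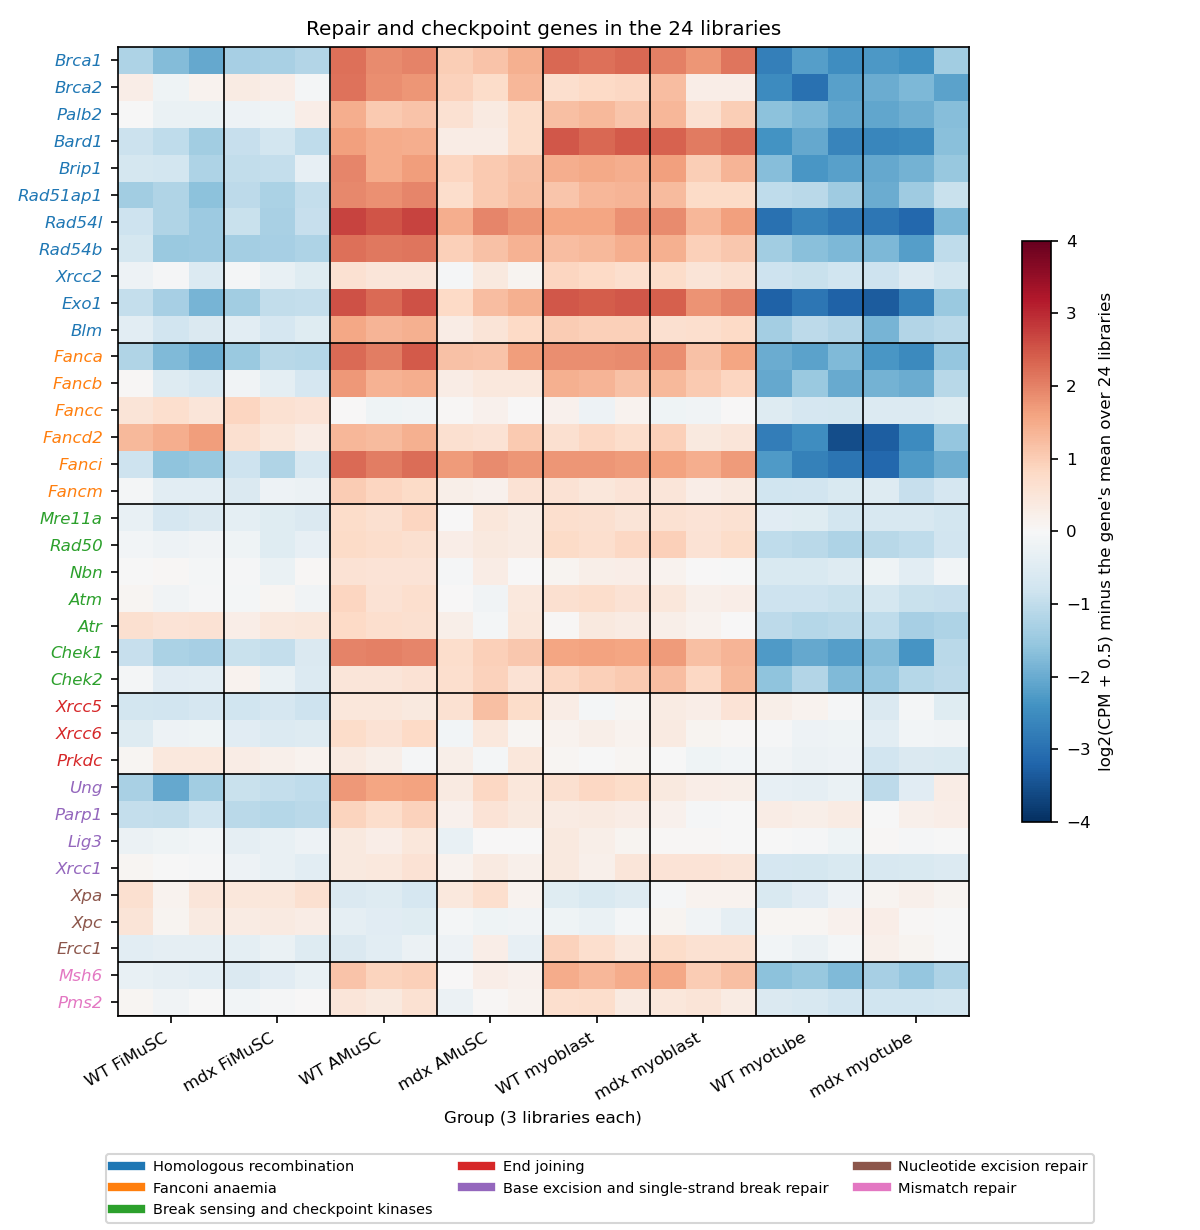
Heat map of the 36 genes (rows, coloured by role) in 24 libraries (columns, 3 per group); colour is log2(CPM + 0.5) minus the gene's mean over the libraries. WT AMuSC and myoblast columns are red and myotube columns blue for most recombination and Fanconi genes, and *mdx* AMuSC columns are paler than WT ones.

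Between genes, levels can be compared only per length, by TPM. Over protein-coding transcripts in WT AMuSCs, *Mre11a* (nuclease of the break-sensing complex) stood at 74.6 ± 15.8 TPM (SD, n = 3), *Parp1* (which marks nicks with poly-ADP-ribose) at 45.4 ± 7.89 TPM and *Palb2* at 1.12 ± 0.218 TPM. The *Mre11a* value is mostly that of 1 annotated fragment of 274 bases (54.9 ± 14.6 TPM). For 10 of the 36 genes, *Atm*, *Brca2* and *Xpa* among them, the transcript with the highest mean TPM is not annotated as protein-coding. All comparisons below use counts per gene.

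The first question was how these genes respond when WT MuSCs leave quiescence after injury. Recombination genes rose together. In WT AMuSCs against FiMuSCs, 30 of the 36 members were higher and 3 lower at an adjusted p under 0.05, where 64.6% of all genes tested were called (31.6% higher and 33.0% lower). The median change of the members was 1.34 on the log2 scale, and that of all genes tested -0.076. All 11 recombination genes rose (median 2.82), as did all 7 genes of break sensing and checkpoint, all 4 of base excision, both of mismatch repair, 4 of 6 Fanconi genes and 2 of 3 end-joining genes. None of the 3 nucleotide excision genes was called higher, and *Xpa* and *Xpc* fell.

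*Rad51ap1* (an accessory factor of strand invasion) rose by 3.58 ± 0.15 on the log2 scale (± SE, edgeR adjusted p = 5.93e-07). *Chek1*, the kinase that halts the cycle when forks stall, rose by 3.41 ± 0.15, edgeR adjusted p = 7.23e-07. *Rad54l*, a motor protein of recombination, rose by 4.11 ± 0.19, edgeR adjusted p = 8.43e-07. These were among the 6 members with the smallest p, which also held *Bard1*, the partner of BRCA1 (2.82 ± 0.16, edgeR adjusted p = 2.36e-06), *Blm*, the helicase of Bloom syndrome (2.17 ± 0.12, edgeR adjusted p = 1.90e-06), and *Parp1* (1.85 ± 0.10, edgeR adjusted p = 1.53e-06). The nuclease *Exo1* was at 3.72, 2.76 and 1.77 CPM in WT FiMuSCs and 47.3, 39.0 and 47.3 CPM in WT AMuSCs. *Brip1*, a helicase that binds BRCA1, was at 4.26, 4.14 and 2.79 and 29.5, 20.8 and 23.7 CPM, and *Fancb*, of the Fanconi core complex, at 5.32, 3.42 and 3.06 and 18.0, 14.0 and 14.7 CPM. In each of these genes the lowest AMuSC library was above the highest FiMuSC library.

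The median change was 0.96 for the break sensors and kinases and 1.08 for end joining. *Mre11a* went from 32.6, 24.7 and 26.4 to 67.3, 63.0 and 73.4 CPM. *Xrcc1*, of single-strand break repair, went from 45.7, 42.8 and 41.9 to 56.6, 58.7 and 65.7 CPM. *Atr*, the kinase that answers to single-stranded DNA, went from 58.3, 54.8 and 55.6 to 65.4, 60.4 and 59.2 CPM (0.22 ± 0.08, edgeR adjusted p = 0.0381), the smallest rise among the members called. The *Atr* call was lost in 10 of 13 alternatives, DESeq2 among them, and without it 6 of the 7 genes of its role rose. *Prkdc* (-0.037 ± 0.14, edgeR adjusted p = 0.832), *Ercc1*, a nuclease subunit of nucleotide excision (0.066 ± 0.12, edgeR adjusted p = 0.651), and *Fancd2* (-0.067 ± 0.12, edgeR adjusted p = 0.630) showed the smallest differences and were not called. *Fancd2*, the protein that is ubiquitinated at crosslinks, thus stood at 33.3, 36.9 and 43.1 CPM in WT FiMuSCs and 33.6, 32.4 and 35.9 in WT AMuSCs, while its partner *Fanci* went from 2.86, 1.44 and 1.55 to 27.7, 24.2 and 27.5 CPM. Of the 3 that fell, *Xpa*, the damage-verification factor of nucleotide excision, changed by -1.01 ± 0.18, edgeR adjusted p = 0.00118. *Xpc*, which finds the lesion, changed by -0.70 ± 0.12, edgeR adjusted p = 0.00121 from 34.7, 25.9 and 31.2 to 18.6, 17.5 and 17.1 CPM, and *Fancc* by -0.59 ± 0.11, edgeR adjusted p = 0.00180. The *Xpa* and *Fancc* calls were lost with an offset for transcript length, and that of *Fancc* also with protein-coding transcripts alone. Among the members that rose, the calls of *Atm* and *Chek2* were lost with that offset, and that of *Pms2* with protein-coding transcripts alone. *Ercc1* was called higher with protein-coding transcripts alone (0.50, edgeR adjusted p = 0.0342).

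Among 112 other genes of the same pathways, 68 were higher and 19 lower in WT AMuSCs. All 12 genes of DNA replication (summed 302 to 399 CPM in WT FiMuSCs and 2273 to 2608 in WT AMuSCs) and all 10 markers of cycling cells rose as well. Taken as a percentage of the summed replication genes, the recombination genes were at 17.3, 18.1 and 17.4% in WT FiMuSCs and 17.0, 15.7 and 14.5% in WT AMuSCs. The break sensors and checkpoint kinases went from 52.8, 60.4 and 64.3% to 14.9, 15.0 and 13.5%. Taken as a percentage of the summed cycling markers, recombination genes went from 36.5, 50.7 and 68.3% to 17.5, 15.4 and 15.9%. These percentages were chosen after the values had been seen and were not tested.

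**Figure D2:**
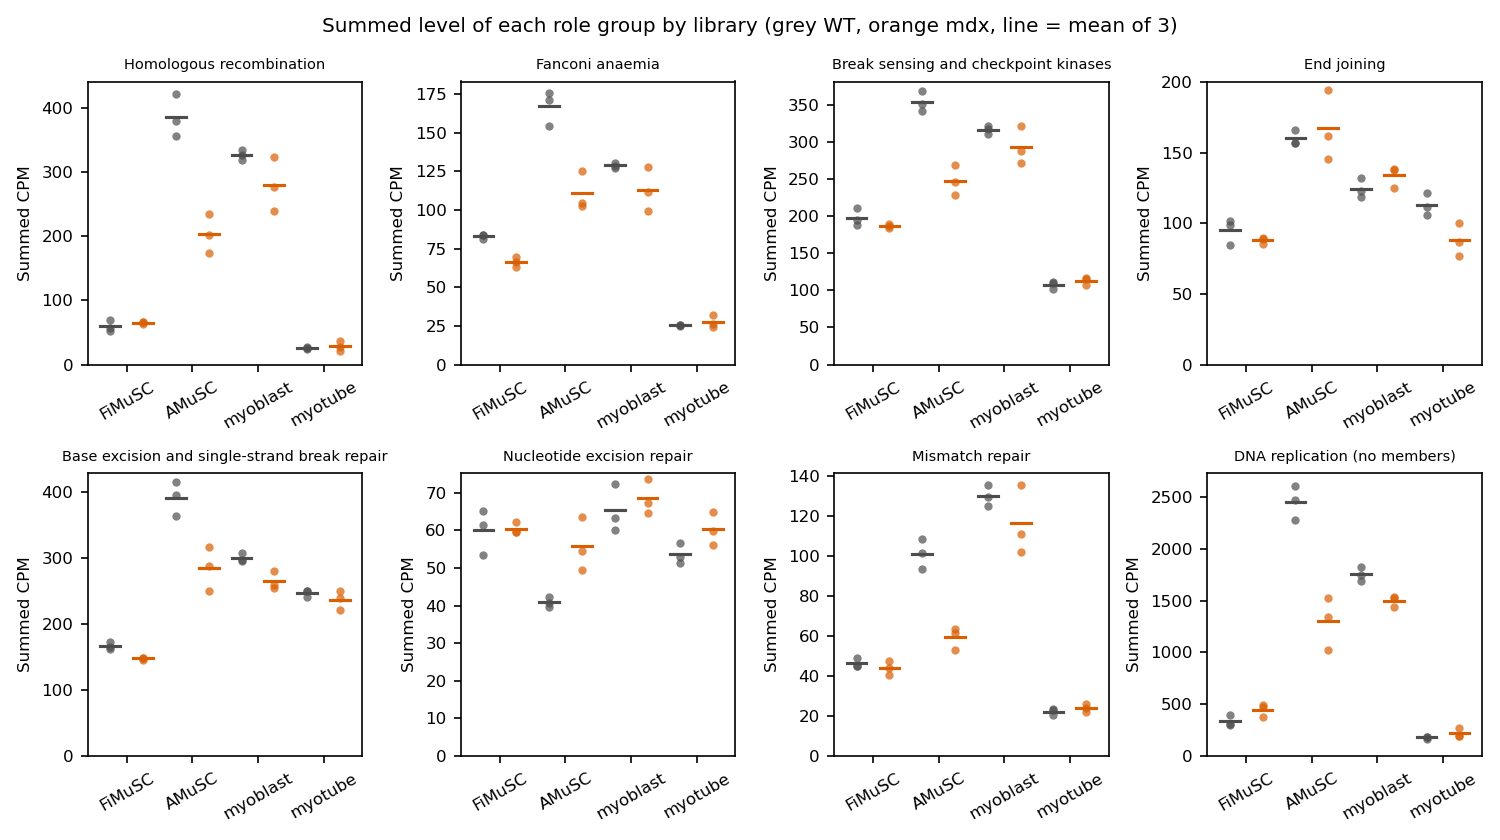
Summed CPM of each role group in every library (points; grey WT, orange *mdx*; lines, means of 3) by state, with 12 DNA replication genes as a last panel. In AMuSCs the *mdx* libraries of recombination, Fanconi, break sensing, base excision and mismatch repair lie under all WT libraries, and those of nucleotide excision above them.

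The response to injury was then measured in *mdx* cells, where more members rose than fell. In *mdx* AMuSCs against *mdx* FiMuSCs, 22 members were higher and 2 lower, where 27.3% of all genes were called (15.5% higher and 11.7% lower). The members' median change was 0.72, against -0.017 for all genes tested. Of the recombination genes 9 of 11 rose, of the checkpoint group 4 of 7, of base excision 3 of 4, of the Fanconi genes 3 of 6, of end joining 2 of 3 and of mismatch repair 1 of 2. The smallest p was that of *Brca1* (2.57 ± 0.18, edgeR adjusted p = 1.84e-04), followed by *Fanci* (2.87 ± 0.23, edgeR adjusted p = 2.76e-04), *Rad54l* (2.96 ± 0.24, edgeR adjusted p = 2.84e-04), *Rad54b* (2.70 ± 0.22, edgeR adjusted p = 2.84e-04), *Fanca* (2.77 ± 0.25, edgeR adjusted p = 4.22e-04) and *Rad51ap1* (2.21 ± 0.22, edgeR adjusted p = 6.55e-04). *Fancc* (-0.63 ± 0.16, edgeR adjusted p = 0.0234) and *Xpc* (-0.48 ± 0.12, edgeR adjusted p = 0.0270) were lower, and both calls were lost when any 1 of the 3 *mdx* FiMuSC libraries was left out. *Prkdc* (0.011 ± 0.17, edgeR adjusted p = 0.967), *Pms2* (0.053 ± 0.17, edgeR adjusted p = 0.844) and *Xpa* (-0.095 ± 0.20, edgeR adjusted p = 0.760) showed the smallest differences. *Ercc1* was not called, but was called higher with protein-coding transcripts alone (0.62, edgeR adjusted p = 0.0274), as in WT. The count of called members was 15 without *mdx* FiMuSC replicate 2 and 24 without *mdx* AMuSC replicate 1.

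Whether the response differed between genotypes was tested as an interaction over the 12 sorted libraries. The rise was smaller in *mdx* for 15 of the 36 members and 1 member, *Xpa*, went the other way, where 15.1% of all genes were called (8.14% higher and 6.98% lower). The members' median difference was -0.64 on the log2 scale and that of all genes -0.033. The 15 were 8 of 11 recombination genes, *Fanca*, *Fancb*, *Chek1*, *Atm*, *Ung*, *Msh6* and *Pms2*. *Chek1* had the smallest p (-1.62 ± 0.23, edgeR adjusted p = 0.00162), and its call was lost with the length offset and with protein-coding transcripts alone. Its levels were 4.40, 3.30 and 3.15 CPM in WT FiMuSCs and 36.01, 37.2 and 35.0 in WT AMuSCs, against 4.47, 4.30 and 5.62 and 14.6, 17.2 and 18.9 in *mdx*. In both genotypes the AMuSC libraries were above the FiMuSC libraries, and all *mdx* AMuSC libraries were below all WT ones.

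*Ung*, the glycosylase that cuts uracil out of DNA, differed most (-1.94 ± 0.32, edgeR adjusted p = 0.00339). It was at 2.76, 1.44 and 2.57 CPM in WT FiMuSCs and 26.1, 23.7 and 24.3 in WT AMuSCs, and at 3.88, 3.70 and 3.45 and 9.87, 13.7 and 10.5 in *mdx*, so that the *mdx* libraries were above all WT ones in FiMuSCs and below them in AMuSCs. The other members named by p were *Rad51ap1* (-1.41 ± 0.24, edgeR adjusted p = 0.00443), the mismatch sensor *Msh6* (-0.88 ± 0.16, edgeR adjusted p = 0.00503), *Bard1* (-1.42 ± 0.26, edgeR adjusted p = 0.00547) and *Blm* (-1.10 ± 0.22, edgeR adjusted p = 0.00770). *Prkdc* (0.023 ± 0.22, edgeR adjusted p = 0.967), *Chek2* (-0.027 ± 0.29, edgeR adjusted p = 0.971) and *Xrcc1*, the scaffold of single-strand break repair (-0.054 ± 0.15, edgeR adjusted p = 0.865), showed the smallest differences. *Chek2*, the checkpoint kinase downstream of *Atm*, rose by 0.98 ± 0.16 in WT and 0.98 ± 0.25 in *mdx*. With the length offset its WT call was lost (edgeR adjusted p = 0.198) and its direction in *mdx* reversed. Calls of the interaction held under all alternatives for 5 members. The number called ranged from 10 to 19 when 1 library was left out (10 without WT FiMuSC replicate 3, and 11 without *mdx* AMuSC replicate 1, *Xpa* not among them), and was 10 with the length offset and 10 with protein-coding transcripts alone. Of 112 other repair genes, 25 were lower and 1 higher in this interaction, and all 12 replication genes and 1 of 10 cycling markers were lower.

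**Figure D3:**
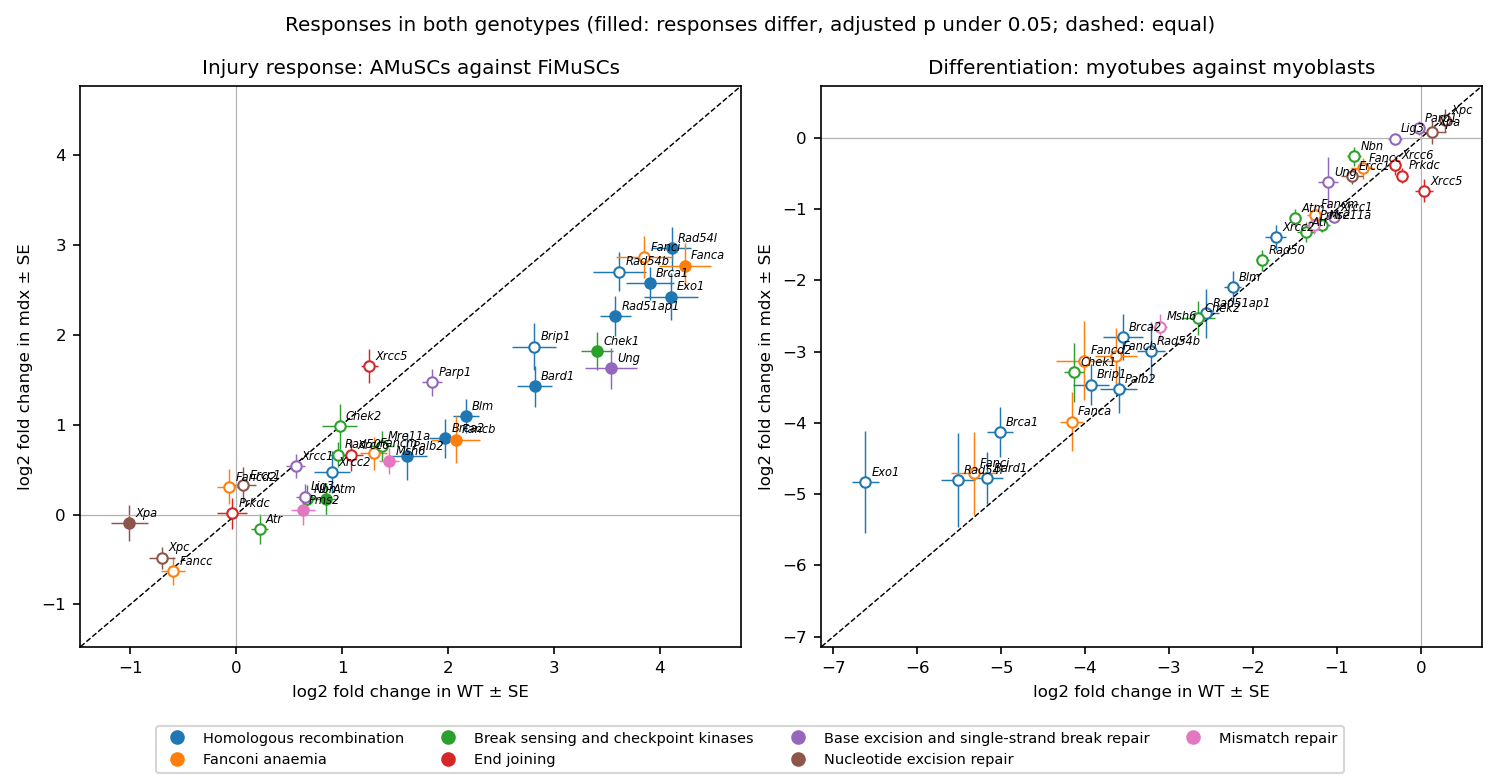
Log2 fold change of each gene in WT (x axis) and *mdx* (y axis), for injury (left) and differentiation (right); bars are SE, colours are roles, and filled points differ between genotypes at an adjusted p under 0.05. On the left 15 filled points lie under the dashed line of equal response and *Xpa* above it; on the right no point is filled.

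The AMuSCs of both genotypes were then compared directly. These libraries also enter the injury comparisons, so the results are not independent. In *mdx* AMuSCs 26 of the 36 members were lower than in WT and 1 was higher, where 23.7% of all genes were called (8.95% lower and 14.8% higher). The median difference was -0.58 for the members and 0.04 for all genes tested. Lower were 10 of 11 recombination genes (median -0.95), 5 of 6 Fanconi genes (-0.59), 5 of 7 break sensors and kinases (-0.52), 3 of 4 base excision genes, both mismatch repair genes and 1 of 3 end-joining genes. *Chek1* (-1.12 ± 0.14, edgeR adjusted p = 0.00251), *Ung* (-1.15 ± 0.15, edgeR adjusted p = 0.00325) and *Msh6* (-0.88 ± 0.12, edgeR adjusted p = 0.00343) had the smallest p. The *Chek1* call was lost with the length offset. They were followed by *Exo1* (-1.33 ± 0.19, edgeR adjusted p = 0.00395), *Fancb* (-1.23 ± 0.17, edgeR adjusted p = 0.00396) and *Rad54b* (-1.01 ± 0.15, edgeR adjusted p = 0.00445).

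In single libraries, *Exo1* was at 13.7, 18.8 and 21.5 CPM in *mdx* AMuSCs against 47.3, 39.0 and 47.3 in WT. *Brca1* was at 26.2, 29.5 and 35.5 CPM against 61.2, 49.1 and 52.9, and *Msh6* at 39.2, 46.9 and 43.5 against 85.5, 71.8 and 76.3 CPM. In these 3 genes no *mdx* library reached the lowest WT library. Of all members, 29 had every *mdx* library below every WT library and 5 had every one above, where 17.4% and 26.9% of all genes did so (44.2% in either direction). *Fancb* stood at 6.33, 6.94 and 7.02 CPM in *mdx*, *Brip1* at 13.5, 15.3 and 16.9 CPM, and *Fancm*, a helicase that anchors the Fanconi core at forks, at 24.0, 23.1 and 30.4 CPM against 42.0, 37.3 and 35.4 in WT. *Mre11a* was at 39.98, 54.6 and 50.5 CPM, and *Atr* at 44.3, 35.6 and 51.2 CPM (-0.52 ± 0.17, edgeR adjusted p = 0.0572, not called). *Atr* was called lower by DESeq2 (DESeq2 adjusted p = 0.0120) and by edgeR with RLE size factors, with no filter or with protein-coding transcripts alone. It was also called lower with all 24 libraries in 1 fit, and without *mdx* AMuSC replicate 2 or replicate 3. Of the Ku pair, *Xrcc6* was lower (33.5, 48.4 and 37.8 against 59.8, 53.4 and 62.2 CPM, -0.58 ± 0.14, edgeR adjusted p = 0.0238). *Xrcc5*, which encodes the other Ku protein, was at 78.6, 119 and 85.2 against 70.2, 70.5 and 67.9 CPM (0.41 ± 0.15, edgeR adjusted p = 0.0834) and was not called. The members not called were *Xrcc2*, *Fancc*, *Chek2*, *Atr*, *Prkdc*, *Xrcc5*, *Xrcc1*, *Ercc1* and *Xpc*.

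In nucleotide excision repair 1 gene was called, in the other direction. *Xpa* was higher in *mdx* AMuSCs (1.05 ± 0.19, edgeR adjusted p = 0.00973), at 11.3, 13.3 and 9.10 CPM against 5.31, 5.66 and 4.98 in WT. The *mdx* AMuSC libraries overlapped with the FiMuSCs (13.0, 9.22 and 11.9 CPM in WT and 11.5, 11.3 and 13.1 in *mdx*), and in WT AMuSCs the level was under all of these. *Xpc* was at 22.7, 21.5 and 21.6 CPM against 18.6, 17.5 and 17.1 (0.28, edgeR adjusted p = 0.137), and *Ercc1* at 20.5, 28.7 and 18.8 against 15.7, 17.6 and 20.1 CPM (0.31, edgeR adjusted p = 0.235). The *Xpa* gene (chr4:46155347-46196311, GRCm38, minus strand) shares 77 exonic bases with *Ncbp1* on the other strand, which reached 177 CPM where *Xpa* reached 13.3, and the strand setting of the counting was not stated. Its main coding transcript, Xpa-201, was at 3.16 ± 0.349 TPM in WT and 6.29 ± 2.35 TPM in *mdx* AMuSCs (SD, n = 3), and a processed transcript of 259 bases at 9.06 ± 7.85 and 25.5 ± 9.81 TPM. The *Xpa* call was lost with the length offset and without WT AMuSC replicate 1 or replicate 3. *Prkdc* (0.021 ± 0.19, edgeR adjusted p = 0.954), *Fancc* (0.14 ± 0.14, edgeR adjusted p = 0.513) and *Chek2* (0.19 ± 0.15, edgeR adjusted p = 0.403) showed the smallest differences.

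**Figure D4:**
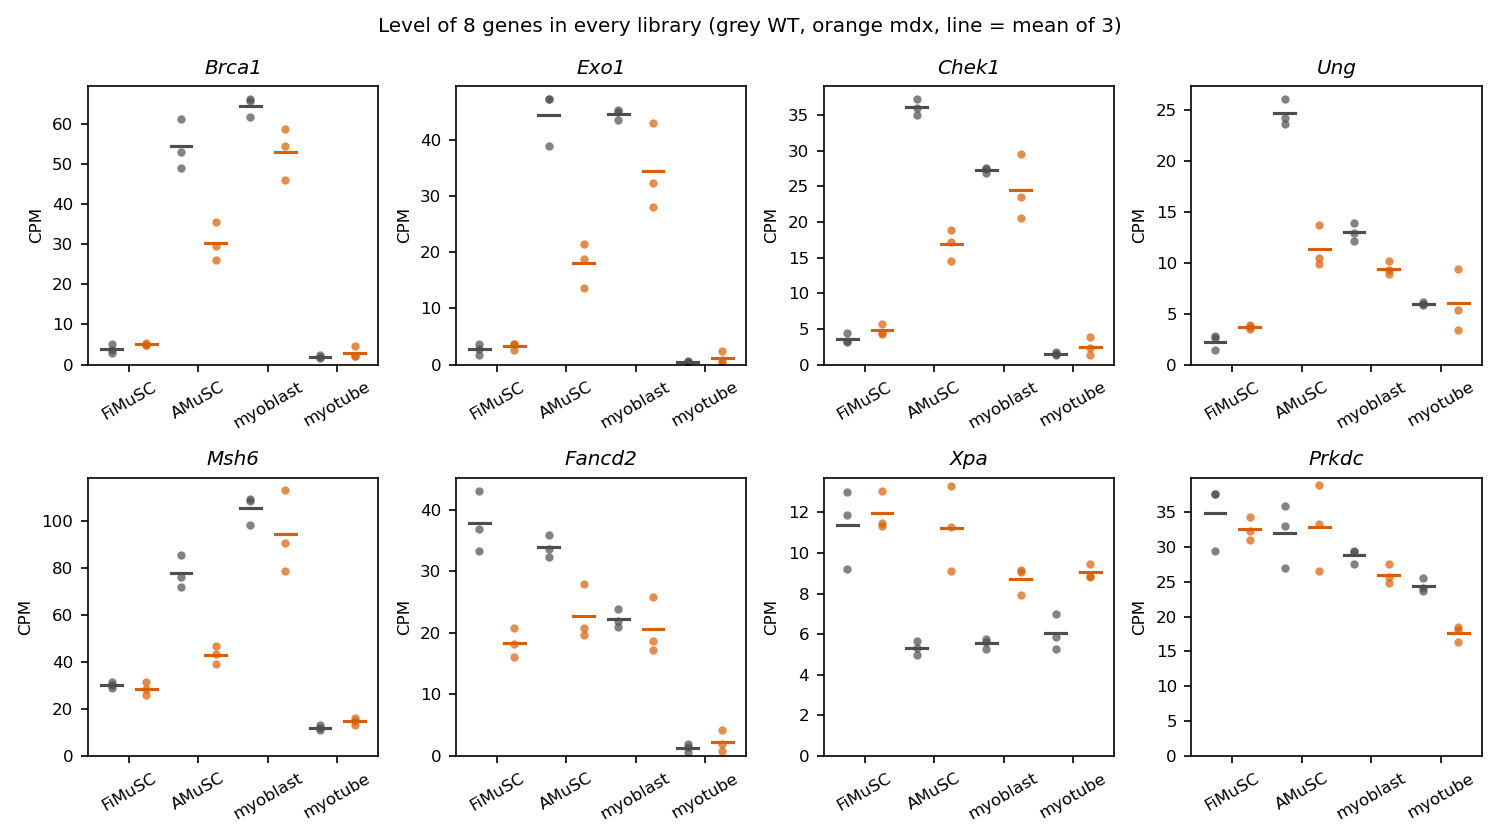
CPM of 8 genes in every library (points; grey WT, orange *mdx*; lines, means of 3) by state. *Brca1*, *Exo1*, *Chek1*, *Ung* and *Msh6* are lower in all *mdx* AMuSC libraries than in all WT ones and *Xpa* is higher, *Fancd2* is also lower in *mdx* FiMuSCs, and *Prkdc* overlaps between genotypes in AMuSCs.

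Other groups of genes moved with this difference. The 12 replication genes were all lower in *mdx* AMuSCs, with sums of 1027, 1524 and 1344 CPM against 2474, 2273 and 2608, as were 8 of 10 cycling markers (1274, 1754 and 1772 against 2399.7, 2309 and 2378 CPM). MuSC markers were higher (1811, 1924 and 1537 against 687, 721 and 647 CPM, 6 of 8 higher and 1 lower). Relative to the summed replication genes, recombination genes were at 17.0, 13.2 and 17.5% in *mdx* AMuSCs and 17.0, 15.7 and 14.5% in WT, and the ranges overlapped. Relative to the summed cycling markers they were at 13.7, 11.5 and 13.2% in *mdx* and 17.5, 15.4 and 15.9% in WT, with every *mdx* library below every WT one, so that the overlap depends on the genes they are set against. Relative to the replication genes, nucleotide excision genes were at 5.31, 4.17 and 3.68% in *mdx* and 1.60, 1.79 and 1.62% in WT, and end-joining genes at 14.2, 12.8 and 12.04% and 6.70, 6.90 and 6.02%, without overlap. Against the cycling markers these were 4.28, 3.62 and 2.80% and 1.65, 1.77 and 1.78%, and 11.4, 11.1 and 9.13% and 6.91, 6.80 and 6.61%, again without overlap. Both sums used as denominators were lower in *mdx*. In summed CPM the end-joining genes were at 145, 194 and 162 in *mdx* and 166, 157 and 157 in WT AMuSCs, and overlapped. The nucleotide excision genes were at 54.5, 63.5 and 49.5 CPM in *mdx* and 39.7, 40.8 and 42.2 in WT, without overlap. Mesenchymal markers summed to 2231, 2449 and 1635 CPM in *mdx* and 640.4, 593 and 537 in WT, and 5 of 6 were higher. The same markers summed to 2375, 4079 and 4671 CPM in WT FiMuSCs. *Pdgfra* among them was at only 1.99, 3.87 and 4.29 CPM in *mdx* AMuSCs and 0.895, 1.62 and 1.02 in WT. Of the leukocyte markers, 4 of 8 were called higher, and the defining marker *Ptprc* was at 169, 4.47 and 16.5 CPM in *mdx* AMuSCs and at or below 0.624 CPM in WT, with none of the 8 at 0. The part of these cells in the members' difference was not tested. Without *mdx* AMuSC replicate 1, 18 members were lower and 2 higher (*Xpa* and *Xrcc5*), and 19 of the 27 calls were kept. The count was 10, 14 and 12 without WT AMuSC replicate 1, 2 and 3, and 10 with the length offset, and 8 of the 27 held under all alternatives. Of 112 other repair genes, 30 were lower and 3 higher.

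**Figure D5:**
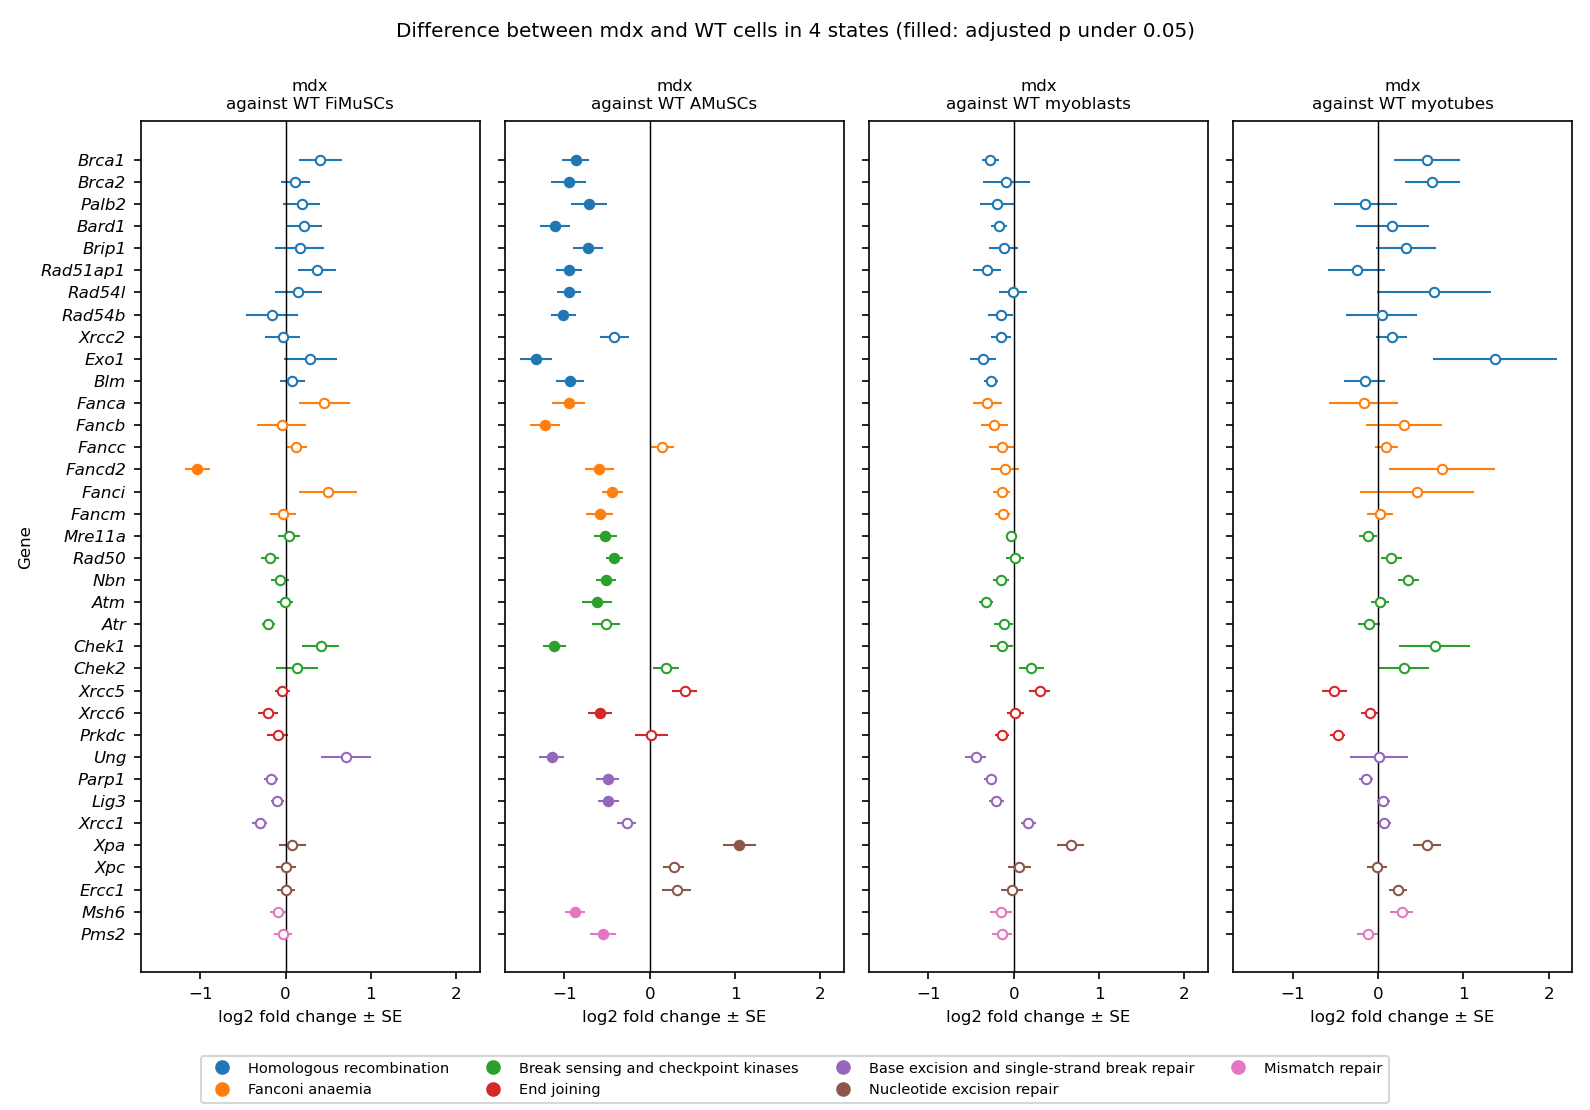
Log2 fold change of *mdx* against WT (x axis, ± SE) for the 36 genes (rows, coloured by role) in 4 states; filled points have an adjusted p under 0.05. In AMuSCs 26 filled points lie left of 0 and *Xpa* right of it; *Fancd2* is the only filled point in FiMuSCs, and there is none in myoblasts or myotubes.

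In resting muscle *Fancd2*, of the Fanconi pathway, was lower in *mdx* cells and no other member was called. Of the 36 members 1 was called in *mdx* against WT FiMuSCs, where 9.67% of all genes were called (5.82% higher and 3.85% lower). The members' median difference was 0.0021, and -0.0019 for all genes. The gene was *Fancd2* (-1.03 ± 0.15, edgeR adjusted p = 0.00983), at 20.8, 18.2 and 16.2 CPM in *mdx* against 33.3, 36.9 and 43.1 in WT. All *mdx* libraries were below all WT libraries, a 2.05-fold difference. Its partner *Fanci* was at 2.82, 2.09 and 3.28 CPM in *mdx* and 2.86, 1.44 and 1.55 in WT (0.49 ± 0.34, edgeR adjusted p = 0.421) and overlapped. *Fancd2* lies at chr6:113531682-113597017 (GRCm38, plus strand), and most of its reads were assigned to the transcript Fancd2-201 of 5512 bases (means of 1519 expected counts in WT and 737 in *mdx* FiMuSCs). The second coding transcript, Fancd2-208, had 88.5 and 138 expected counts. The gene shares 257 exonic bases with *Fancd2os* on the other strand, which reached 0.0785 CPM at most. In AMuSCs *Fancd2* was lower as well, at 20.8, 19.7 and 27.9 CPM in *mdx* against 33.6, 32.4 and 35.9 in WT (-0.59 ± 0.17, edgeR adjusted p = 0.0406). That call was lost in 6 of 13 alternatives, among them without *mdx* AMuSC replicate 1 and without each WT AMuSC library.

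The *Fancd2* call was lost with all 24 libraries in 1 fit (edgeR adjusted p = 0.0881), with a difference of -1.04, and without *mdx* FiMuSC replicate 2 (edgeR adjusted p = 0.0542). *Xpc* (0.0017 ± 0.12, edgeR adjusted p = 0.994), *Ercc1* (0.0024 ± 0.11, edgeR adjusted p = 0.991) and *Atm*, the kinase that answers to double-strand breaks (-0.0048 ± 0.10, edgeR adjusted p = 0.982), showed the smallest differences. *Ung* was at 3.88, 3.70 and 3.45 CPM against 2.76, 1.44 and 2.57 and did not overlap, but was not called (0.71 ± 0.29, edgeR adjusted p = 0.184). Leukocyte markers were higher in *mdx* FiMuSCs (361, 585 and 1099.7 CPM against 91.1, 315 and 65.2, 3 of 8 called). Mural markers (282, 150.3 and 145 against 114, 56.4 and 83.6 CPM, 0 of 4 called) were above WT without overlap. MuSC markers (4072, 3406 and 2977 against 4989.5, 4679 and 4364 CPM, 2 of 8 called lower) were below it without overlap. Endothelial markers summed to 502, 168 and 175 against 146, 129 and 189 CPM (0 of 5 called). *Cdh5* among them was above WT in every *mdx* library, whereas *Pecam1* overlapped (154, 62.0 and 71.4 against 53.4, 86.3 and 129 CPM). The part of these cells in the *Fancd2* difference was not tested. No replication gene or cycling marker was called, and of 112 other repair genes 1 was higher and 2 lower.

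In culture no member was called between genotypes. In myoblasts 0 of 36 were called with edgeR, where 0.36% of all genes were called. At an unadjusted p under 0.05 there were 2 higher and 6 lower, where 7.95% and 6.5% of all genes were. DESeq2 called 1, *Xpa*, and 4.88% of the genes it gave an adjusted p. The smallest differences were those of *Rad54l* (-0.0085 ± 0.16, edgeR adjusted p = 0.989), *Rad50*, the coiled-coil partner of *Mre11a* (0.014 ± 0.11, edgeR adjusted p = 0.968), and *Xrcc6* (0.015 ± 0.10, edgeR adjusted p = 0.960). *Xpa* was at 7.94, 9.09 and 9.17 CPM in *mdx* and 5.77, 5.27 and 5.62 in WT myoblasts (0.66 ± 0.16, edgeR adjusted p = 0.168), without overlap. *Exo1* was at 43.1, 28.0 and 32.3 CPM against 45.4, 43.6 and 45.1 and *Brca1* at 54.4, 45.9 and 58.7 against 66.2, 61.7 and 65.7 CPM. The *mdx* myoblast libraries were more spread than the WT ones in both genes. *mdx* myoblast replicate 2 had the lowest summed cycling markers (1757, 1314 and 1498 CPM in the 3 libraries) and the highest leukocyte markers (9.16, 179 and 10.2 CPM), and without it 0 members were called as well.

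In myotubes 0 of 36 were called with edgeR, where 0.591% of all genes were called. At an unadjusted p under 0.05 there were 2 higher and 2 lower, where 7.49% and 6.07% of all genes were. DESeq2 called 2, *Prkdc* and *Xrcc5*, and 4.21% of the genes it gave an adjusted p. *Xrcc5* was at 33.9, 48.1 and 36.3 CPM against 61.0, 56.8 and 50.2 (-0.51 ± 0.14, edgeR adjusted p = 0.215), and *Prkdc* at 16.4, 18.5 and 18.1 against 25.5, 23.7 and 24.1 (-0.47 ± 0.092, edgeR adjusted p = 0.101). The remaining end-joining gene, *Xrcc6*, was called by neither tool. Over protein-coding transcripts it was at 11.2 ± 1.93 TPM in *mdx* and 11.5 ± 0.869 TPM in WT myotubes (SD, n = 3). *Ung* (0.0097 ± 0.34, edgeR adjusted p = 0.993), *Xpc* (-0.013 ± 0.12, edgeR adjusted p = 0.973) and *Atm* (0.021 ± 0.10, edgeR adjusted p = 0.949) showed the smallest differences. *Exo1* was at 0.323, 0.764 and 2.43 CPM in *mdx* myotubes against 0.374, 0.608 and 0.376 in WT. Its highest value was in *mdx* myotube replicate 3, which also had the highest summed cycling markers (40.01, 49.5 and 130.0 CPM in the 3 libraries), and 0 members were called without that library.

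The last question was what differentiation does to these genes. In WT myotubes against myoblasts 32 of the 36 members were lower and 1 higher, where 69.5% of all genes were called (34.9% higher and 34.5% lower). The median was -1.81 for the members and -0.016 for all genes. All 11 recombination genes (median -3.60), 6 Fanconi genes (-3.82), 7 break sensors and kinases (-1.50) and both mismatch repair genes (-2.19) fell, with 3 of 4 base excision genes and 2 of 3 end-joining genes. *Exo1* fell most (-6.62 ± 0.16, edgeR adjusted p = 1.10e-07), from 45.4, 43.6 and 45.1 CPM to 0.374, 0.608 and 0.376 CPM. It was followed by p by *Msh6* (-3.11 ± 0.086, edgeR adjusted p = 1.58e-07), *Chek1* (-4.13 ± 0.12, edgeR adjusted p = 1.80e-07), *Brca1* (-5.02 ± 0.15, edgeR adjusted p = 2.19e-07), *Fanca* (-4.16 ± 0.14, edgeR adjusted p = 2.76e-07) and *Bard1* (-5.16 ± 0.18, edgeR adjusted p = 3.15e-07). Each of these had myotube libraries far below every myoblast library. *Brca1*, for one, stood at 1.55, 2.47 and 1.94 CPM in WT myotubes and *Msh6* at 12.1, 13.3 and 11.1 CPM.

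The end-joining genes and some genes of excision repair showed smaller differences, with a median of -0.22 for end joining, -0.67 for base excision and 0.13 for nucleotide excision. *Parp1* (-0.022 ± 0.053, edgeR adjusted p = 0.732), *Xrcc5* (0.04 ± 0.11, edgeR adjusted p = 0.762) and *Xpa* (0.13 ± 0.17, edgeR adjusted p = 0.506) showed the smallest differences and were not called. *Xpc* was higher in myotubes (0.29 ± 0.08, edgeR adjusted p = 0.0123), at 25.4, 25.4 and 27.2 against 21.5, 20.1 and 22.7 CPM, a call lost with the length offset and with all 24 libraries in 1 fit. *Xrcc6* went from 39.96, 42.5 and 39.5 to 34.8, 31.3 and 31.8 CPM, *Prkdc* from 29.3, 27.6 and 29.4 to 25.5, 23.7 and 24.1, and *Lig3*, the ligase that seals single-strand breaks, changed by -0.31. *Ung* went from 12.1, 13.9 and 12.9 to 5.95, 5.81 and 6.17 CPM and *Xrcc1* from 57.1, 50.3 and 61.0 to 27.2, 26.3 and 28.0 CPM. *Ercc1* fell from 45.2, 37.95 and 31.9 to 22.2, 20.1 and 22.5 CPM. Among the sensors, *Mre11a* still stood at 28.9, 28.2 and 24.0 CPM and *Atr* at 17.9, 16.7 and 17.3 CPM in WT myotubes, and *Fancm* at 11.5, 11.8 and 13.1 CPM, whereas *Fancb* stood at 0.863, 1.49 and 0.877 and *Brip1* at 1.84, 1.01 and 1.19 CPM. Thus the summed recombination genes went from 327, 319 and 334 to 25.9, 26.7 and 24.7 CPM, and the summed end-joining genes from 132, 118 and 122 to 121, 112 and 106 CPM. Of 112 other repair genes 65 were lower and 24 higher, and all 12 replication genes and all 10 cycling markers were lower.

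In *mdx* cells 30 members were lower in myotubes than in myoblasts and none was higher, where 52.2% of all genes were called (26.5% lower and 25.8% higher), and the members' median was -1.55 against -0.069 for all genes. At an unadjusted p under 0.05 none was higher either, where 28.5% of all genes were, nor with DESeq2, which called 22.8% higher. The smallest p were those of *Msh6* (-2.65 ± 0.17, edgeR adjusted p = 9.37e-05), *Xrcc1* (-1.11 ± 0.081, edgeR adjusted p = 1.29e-04), *Mre11a* (-1.23 ± 0.091, edgeR adjusted p = 1.34e-04), *Bard1* (-4.77 ± 0.37, edgeR adjusted p = 1.63e-04), *Brip1* (-3.46 ± 0.28, edgeR adjusted p = 1.86e-04) and *Rad50* (-1.71 ± 0.15, edgeR adjusted p = 2.15e-04). All 3 end-joining genes were among those called lower, but the *Xrcc6* call was lost in 11 of 13 alternatives and the call of *Fancc* in 12. Of the base excision genes only *Xrcc1* was called, but *Ung* was also called lower without *mdx* myotube replicate 3 (-1.07, edgeR adjusted p = 0.0284). *Lig3* (-0.0078 ± 0.084, edgeR adjusted p = 0.947), *Xpa* (0.078 ± 0.16, edgeR adjusted p = 0.717) and *Parp1* (0.14 ± 0.10, edgeR adjusted p = 0.301) showed the smallest differences. *Nbn*, the third subunit of the *Mre11a* complex, went from 26.7, 24.5 and 23.9 to 21.3, 17.9 and 22.4 CPM (-0.26 ± 0.13, edgeR adjusted p = 0.135). It was called lower with all 24 libraries in 1 fit (-0.29, edgeR adjusted p = 0.0314). In WT *Nbn* fell by 0.79 on the log2 scale, and the difference between these responses was not called.

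No member was called for a difference in the differentiation response between genotypes. With edgeR 0 of 36 were called in the interaction over the 12 cultured libraries, where 0.0592% of all genes were called (0.0269% higher and 0.0323% lower, 11 of 18585 in all). DESeq2 also called 0, and 1.67% of the genes it gave an adjusted p. At an unadjusted p under 0.05, 6 members had a more positive change in *mdx* and 2 a more negative one, *Xrcc5* and *Prkdc* of end joining, where 8.03% and 4.24% of all genes did. *Xpc* (-0.022 ± 0.18, edgeR adjusted p = 0.980), *Mre11a* (-0.03 ± 0.12, edgeR adjusted p = 0.955) and *Xpa* (-0.032 ± 0.21, edgeR adjusted p = 0.975) showed the smallest differences. *Exo1* had the largest (1.84 ± 0.74, edgeR adjusted p = 0.360), with *mdx* myotube replicate 3 above the other 2 *mdx* myotube libraries.

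Reads shared with neighbours limit some of these values. Of the 36 genes, 18 share exonic bases with another annotated gene, 16 with one on the opposite strand and 4 with one on the same strand. The library kit is directional, but the strand setting of the quantification was not stated. *Rad54l* shares 1184 bases with *Lrrc41*, *Fanci* 921 with *Polg*, *Fanca* 920 with *Zfp276* and *Lig3* 1826 with *Rffl*, all on the opposite strand. *Rad54b* shares 2068 bases with *Fsbp* on the same strand, so that their reads can be told apart only by the transcript model. *Brca1*, *Bard1*, *Exo1*, *Chek1*, *Ung* and *Xrcc5* share none.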

How the data were processed

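Transcript abundances of 24 polyA libraries were used as the authors deposited them, 1 Salmon table per library. The deposited expected counts were estimates per transcript, not normalized, the deposited TPM were scaled by the authors to the same total in every library, and the other deposited column was the effective transcript length. Salmon 0.13.1 and DESeq2 were named in the submitters' processing notes, with the GRCm38 build and without roles. The strand setting was not given in the sources used here.

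Expected counts were summed per gene and rounded. Each comparison was fitted with the edgeR 4.0.16 quasi-likelihood test (R 4.3.3, robust, TMM, filterByExpr) on its 6 libraries, or 12 for interactions, and p-values were adjusted by Benjamini-Hochberg over all genes tested, with calls at 0.05. SE are of log2 fold changes. Alternatives were RLE size factors, DESeq2 1.42.0, no filter, the replicate number as a block, all 24 libraries in 1 fit, a transcript length offset, protein-coding transcripts only, and each library left out. Libraries are taken as biological replicates, and if any share animals the p-values measure a narrower spread. With 37280196 to 64429222 expected counts per library, all 36 genes passed the filter.

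The members and gene lists were chosen with earlier results of these data known. Full statistics were given for up to 6 called members per direction with the smallest p and the 3 with the smallest fold change, and values in every library for the members with the highest and lowest mean TPM in 6 roles. Mismatch repair was left out by the limit of 12 genes. *Brca1*, *Chek1*, *Fancd2*, *Fanci*, *Xpa*, *Msh6*, *Nbn* and *Xrcc5* were given in every library after their values were seen.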

Additional observations from a re-analysis of the deposited data

Results flagged for a closer look

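The response to injury differed between genotypes in the interaction test for 16 members, each listed by the *mdx* minus WT difference in log2 fold change with an edgeR adjusted p under 0.05. In homologous recombination the difference was -1.36 for *Brca1*, -1.16 for *Brca2*, -0.99 for *Palb2* and -1.42 for *Bard1*. It was -1.41 for *Rad51ap1*, -1.18 for *Rad54l*, -1.71 for *Exo1* and -1.10 for *Blm*. The Fanconi genes *Fanca* and *Fancb* differed by -1.50 and -1.27, and the kinases *Atm* and *Chek1* by -0.71 and -1.62. *Ung* differed by -1.94, *Msh6* by -0.88 and *Pms2* by -0.61. *Xpa* was the member with a positive difference, 0.89, and its call was lost under 14 of 19 alternatives. The call of *Palb2* was also lost under 14, that of *Pms2* under 13, *Atm* under 11 and *Fancb* under 8, and those of *Brca1*, *Bard1*, *Blm*, *Ung* and *Msh6* under none. The remaining 6 were lost under 1 to 3. Groups of 3 libraries are too small for a test of single outlying libraries. The leukocyte markers and cycling genes that moved with these libraries are given with the comparison of AMuSCs, and their part was not tested.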

How the results depend on the processing

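Of the calls in the 2-group comparisons and the interaction, those held under all alternatives were 27 of 33 for injury in WT, 14 of 24 for injury in *mdx*, 29 of 33 for differentiation in WT, 26 of 30 for differentiation in *mdx*, 8 of 27 between AMuSCs, 5 of 16 for the difference in injury response and 0 of 1 between FiMuSCs. Between AMuSCs the 27 called members became 17 with the replicate block and 10 with the transcript length offset, and 10 to 30 without 1 library. For the difference in injury response the 16 became 10 with the length offset, 10 with protein-coding transcripts and 10 to 19 without 1 library. For injury in *mdx* the 24 became 15 to 24, and between FiMuSCs the 1 became 0 to 2 without 1 library, 2 without *mdx* FiMuSC replicate 1, when *Xrcc1* was also called. DESeq2 called 1 member between myoblasts and 2 between myotubes where edgeR called 0, and all 24 libraries in 1 fit called 1 between myoblasts. With all 24 libraries in 1 fit the call between FiMuSCs passed from *Fancd2* to *Xrcc1*. Among called members 1 direction reversed, that of *Chek2* in *mdx* AMuSCs against FiMuSCs with the length offset (-0.055, edgeR adjusted p = 0.906). Uncalled members changed sign more often, at most 10 of them in 1 setting for the difference in differentiation response, 9 between myoblasts, 8 between FiMuSCs and 7 between myotubes. The causes were not tested. Same-numbered libraries of different groups had correlations of deviations from -0.119 to 0.285, and no comparison had all 3 above 0.1, so the numbers were not taken as pairs and the block result is given here alone. All members passed the filter on low counts, and levels near 1 CPM in myotubes rest on the fewest reads.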
